A study of Mus musculus with 16 samples.

Results

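Cranial mesoderm is the unsegmented mesoderm of the embryonic head, and 773 of 37841 analyzed cells carried this label in chimeric mouse embryos. The label is that of the most frequent cell type among the nearest 25 cells in a reference atlas of early mouse development. The cells described here are all those labeled Cranial mesoderm in embryos of embryonic day (E) 7.5 up to E9.5 that passed the authors' quality filter and were not called doublets. A null cell came from the tdTomato-positive sort gate, and a WT cell from the negative gate with no unique molecular identifier (UMI, a tag that marks 1 counted transcript) of tdTomato. A further 10 cells of the negative gate held such a UMI and were left out.

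Cranial mesoderm lies beside the brain and around the foregut and never forms somites, the paired blocks into which trunk mesoderm divides. It gives rise to the muscles of the eye and jaw, to part of the skull and to vessels and connective tissue of the head. *Foxc2*, the marker by which these cells were introduced, encodes a forkhead transcription factor of head and somite mesoderm. *Tbx1* encodes a regulator of pharyngeal and jaw muscle progenitors, and *Twist1* and *Prrx1* encode regulators of head mesenchyme, which neural crest cells of the face also express.

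The chimeras were made from *Stat3* null embryonic stem cells (ESCs) with a ubiquitous nuclear tdTomato transgene, injected into WT CD1 blastocysts. The ESCs came from intercrosses of heterozygous mice of the same CD1 stock, and their *Stat3* alleles carry a neomycin cassette in place of coding exons. The null and WT cells of an embryo thus differed at least in *Stat3*, in the transgene and in their passage through ESC culture. These cannot be told apart here, since all null cells descend from injected ESCs and all WT cells from the host. The ESCs and the hosts also came from different embryos. Sex and individual genetic background may therefore differ too, and they cannot be told apart from genotype. Whole embryos were pooled and dissociated at E7.5 and E8.5. At E9.5 the labels give 1 embryo per pool, whereas the study's methods give 2 embryos in all beside 4 libraries of each genotype, so how many independent embryos stand behind them is unknown. The 16 libraries, lettered within a group, comprise 4 of each genotype at E9.5 and 2 of each genotype at either earlier stage. All p-values measure the spread between these libraries, and stage cannot be told apart from the day of collection.

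Cranial mesoderm contributed 37 cells at E7.5 (29 null and 8 WT), 218 at E8.5 (106 null and 112 WT) and 518 at E9.5 (269 null and 249 WT). UMIs were summed over the cells of a library and are given as counts per 1000000 UMIs (CPM). Only libraries with more than 15 such cells entered these sums. This kept 13 libraries of 18 to 89 cells and 489758 to 3080900 UMIs, with E7.5 represented by null library A alone. E7.5 null B, WT A and WT B held 2, 4 and 4 cells. The median cell carried 29412 UMIs, and 0 of 773 barcodes occurred in more than 1 library. The transgene was detected in 95.7 to 100% of null cells per library at E9.5, at 272 to 291 CPM. E8.5 null B stood apart, with 18 cells, a UMI of the transgene in 83.3% of them and 87.8 CPM, against 96.6% and 217 CPM in E8.5 null A.

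The label was checked against the other cell types of the same libraries. These levels are a description without a test, because the label itself was assigned from expression. *Foxc2* reached 31.4 ± 13.6 CPM (SD, n = 13 libraries), the tenth highest mean of 79 cell types, and its highest mean of 104 CPM was in Sclerotome, the somite compartment that forms the vertebrae. *Twist1* (487 ± 118 CPM), *Alx4* (25.1 ± 14.2) and *Foxd1* (144) ranked among the first 3 types each. *Tbx1* ranked eighth at 32.7 ± 23.6 CPM, against 176 CPM in Anterior cardiopharyngeal progenitors. No marker of the list was therefore highest in the cells labeled Cranial mesoderm, and *Tcf21* and *Msc*, regulators of jaw muscle progenitors, were near 0 at 2.79 and 1.55 CPM. Across the 10759 genes compared, the mean profile was most like Anterior somitic tissues (Pearson's r across genes 0.990). Sclerotome (0.989) and Branchial arch neural crest (0.981) came next, and these profiles share libraries only in part. The means rest on 13 libraries here, on 7, 12 and 11 in those types, and on 2 in Anterior cardiopharyngeal progenitors. Stage is therefore mixed with cell type in the levels compared between types, here and below.

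Of 5519 genes at 20 CPM or more in Cranial mesoderm, 6 had their highest mean there. *Tmem132c*, a transmembrane protein gene, reached 73.8 ± 32.9 CPM, 1.20 times the next type, Somitic mesoderm. *Tgfbi*, which encodes a secreted adhesion protein of the matrix, reached 44.9 ± 16.02 CPM and 1.05 times Anterior somitic tissues. *Mrc2*, a collagen uptake receptor gene, reached 24.0 ± 5.65 CPM and 1.04 times Sclerotome. These margins were smaller than the SD between libraries. Against the 3 types most like it, *Prrx1* averaged 205 CPM here, 166 in Anterior somitic tissues, 69.7 in Sclerotome and 356 in Branchial arch neural crest. *Foxd1* averaged 144 CPM here, 136 in Anterior somitic tissues, 388 in Sclerotome and 18.4 in Branchial arch neural crest. *Meox1*, a somite regulator, averaged 33.3 CPM here and 27.4, 247 and 20.9 CPM in the same types. In each of these genes Anterior somitic tissues lay nearest, within the SD between libraries, but other markers differed. *Twist1* averaged 487 CPM here and 409, 486 and 625 CPM in the same types, nearest to Sclerotome. *Tbx1* averaged 32.7 CPM here and 68.8, 32.9 and 1.94 CPM, also nearest to Sclerotome. *Foxc2* averaged 31.4 CPM here and 60.2, 104 and 10.6 CPM, nearest to Branchial arch neural crest.

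Some defining genes of other lineages were at or near 0, while other members and the summed lists were not. *Sox10* and *Foxd3*, which mark migrating neural crest, ranged over libraries from 0 to 4.08 and from 0 to 1.83 CPM. *Pecam1* and *Cdh5*, which mark endothelium, did not exceed 1.83 and 2.01 CPM, and *Msgn1*, which marks presomitic mesoderm, did not exceed 0.591 CPM. By contrast, the somite genes *Tcf15* and *Meox1* averaged 39.2 and 33.3 CPM, the endothelial regulator *Etv2* stood at 86.4 CPM in E8.5 WT B, and the neural crest gene *Tfap2b* held 205 UMIs in E9.5 WT libraries. The neural crest list summed to 29.2 CPM in E7.5 null A, 157 to 204 CPM at E8.5 and 170 to 254 CPM at E9.5, and the somite list to 218 to 424 CPM over libraries. The endothelial list stood at 147 CPM in E7.5 null A and 197 CPM in E8.5 WT B, and at 30.5 to 63.7 CPM elsewhere. E7.5 null A stood apart with 321 CPM of cardiac and 318 CPM of endoderm genes, against 31.6 to 107 and 27.7 to 70.7 CPM in the other libraries. The part of such cells or RNA in the results was not tested. Hemoglobin RNA, which these cells do not make, ranged from 11.6 to 629 CPM in E9.5 null libraries and from 278 to 1708 CPM in E9.5 WT libraries. Hemoglobin genes were left out of every test. The source of this RNA and its part in the genotype comparisons were not tested.

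The share of cells in Cranial mesoderm addresses whether null cells entered this tissue as host cells did. At E9.5 it was 2.06, 2.99, 4.33 and 2.52% in null A to D and 1.56, 2.54, 2.63 and 2.12% in WT A to D. The ranges overlapped, and the means of 2.97 ± 0.981% and 2.21 ± 0.487% (SD, n = 4 and 4) did not differ beyond the spread (exact permutation test, two-sided, p = 0.286, smallest possible 0.0286). At E8.5 the shares of 2.30 and 1.57% in null A and B stood beside 1.65 and 1.83% in WT A and B, and at E7.5 they were 1.24 and 0.556% against 0.553 and 0.224%. Neither stage could reach a p under 0.333 in this test. In a model of all cell types, the quasi-likelihood test of edgeR gave log2 differences of 0.98 ± 1.72 (SE), 0.16 ± 0.37 and 0.43 ± 0.37 in the order of the stages, with adjusted p of 0.991, 1.00 and 0.963 over 27, 68 and 71 types. Without null C the E9.5 difference was 0.14. A difference in share was thus not detectable at this number of libraries. The exact 95% binomial interval of null C alone was 3.39 to 5.45%, which covers counting error only.

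Each cell also carries the stage of its nearest atlas cells. Of the E7.5 cells 64.9% mapped to day 8.0, of the E8.5 cells 49.5% to day 8.75 and of the E9.5 cells 50.2% to day 9.25, while 27.2% of the E9.5 cells mapped to day 8.75. The library means at E9.5 were 8.85 to 8.99 days in null and 8.99 to 9.10 days in WT cells. Null cells lay 0.126 days earlier at E9.5, which did not pass the test (exact permutation test, p = 0.0571), and both stages together gave a null minus WT difference of -0.103 days (p = 0.124 over 420 arrangements). Summed S phase genes stood at 5625 to 6218 CPM in null and 5314 to 5510 CPM in WT libraries at E9.5, and summed G2/M genes at 8005 to 8582 against 8665 to 9229 CPM. The groups did not overlap in either sum at E9.5. At E8.5 the S phase sums lay in the opposite order, at 5751 and 5437 CPM in null and 6028 and 5818 CPM in WT libraries, and the G2/M sums of 8536 and 7606 CPM in null and 7607 and 7581 CPM in WT libraries overlapped. The null minus WT difference was positive for 38 of 42 S phase genes at E9.5 and 8 at E8.5, and for 7 of 52 G2/M genes at E9.5 and 40 at E8.5, and 0 of either list was called by genotype. The median log2 differences were small, at 0.16 and -0.10 for S phase and -0.16 and 0.13 for G2/M genes at E9.5 and E8.5. Over all genes they were 0.003 and 0.

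Between E8.5 and E9.5 the early regulators *Foxc2* and *Tbx1* fell in both genotypes while *Bmp4*, *Gas1*, *Crabp2* and type I collagen genes rose, and 12 of 24 genes of glycolysis and hypoxia fell in WT and 14 in null cells. Genes were tested with the quasi-likelihood test of edgeR in 1 model of the 13 libraries and called at a Benjamini-Hochberg adjusted p under 0.05 over all 10206 genes and an absolute log2 fold change over 1. In WT cells 411 genes (4.03%) were called, 293 higher (2.87%) and 118 lower (1.16%) at E9.5. In null cells 273 genes (2.67%) were called, 195 higher (1.91%) and 78 lower (0.764%). The calls of both genotypes shared 158 genes, 38.4% of the WT calls and 57.9% of the null calls, and all 158 had the same direction. The list counts below are to be read against these percentages.

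*Foxc2* stood at 52.3 CPM in the E7.5 library. At E8.5 it stood at 38.5 and 44.8 CPM in WT and 41.8 and 55.1 CPM in null libraries, and at E9.5 at 22.9, 25.7, 16.5 and 17.0 CPM in WT and 23.1, 26.9, 16.2 and 27.2 CPM in null libraries. Each E8.5 library lay above each E9.5 library. The log2 change was -1.27 ± 0.23 (SE, adjusted p = 0.00023, edgeR) in WT and -1.16 ± 0.22 (adjusted p = 0.00058) in null cells, called in all 12 alternatives of either genotype. *Tbx1* followed the same order, with 67.0 and 60.5 CPM in WT and 58.2 and 67.4 CPM in null libraries at E8.5 and 7.41 to 18.2 and 13.6 to 30.7 CPM at E9.5. It fell by 2.61 ± 0.29 on the log2 scale in WT (adjusted p = 7.2e-06) and by 1.84 ± 0.27 in null cells (adjusted p = 0.00022).

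*Prrx1* moved the other way, from 128 and 90.3 CPM in WT and 144 and 51.0 CPM in null libraries to 228 to 289 and 257 to 326 CPM. Its log2 change of 1.04 ± 0.28 in WT (adjusted p = 0.042, edgeR) was called in 5 of 12 alternatives, with an adjusted p of up to 0.287, and in 0 of the 6 that left out a library. In null cells it was 1.17 ± 0.28 (adjusted p = 0.035) and was lost without E8.5 null B, E9.5 null A or E9.5 null C. *Otx2*, a regulator of the forebrain and anterior head, stood at 66.4 CPM in the E7.5 library, 8.38 to 14.4 CPM at E8.5 and 1.35 to 10.1 CPM at E9.5. It was called in null cells only (log2 change -2.21 ± 0.53, adjusted p = 0.013, lost without E8.5 null A), and the difference between the genotypes of -1.05 ± 0.77 was not significant (adjusted p = 1.00). *Meis2*, a homeobox gene, changed by 1.28 ± 0.26 in null cells, a call that was lost without either E8.5 null library, and by 0.07 ± 0.23 in WT cells (adjusted p = 0.898). The difference between the genotypes of 1.21 ± 0.35 was not significant (adjusted p = 1.00).

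Of the 19 tested head mesoderm regulators, 1 was called higher and 1 lower in WT cells and 2 and 2 in null cells, with medians of 0.32 and 0.25 beside 0.03 and 0.04 over all genes. The WT counts hold *Prrx1* and *Foxc2*. *Twist1* changed by 0.36 ± 0.10 in WT cells, under the fold required for a call, and *Prrx2*, a paralog of *Prrx1*, by -0.71 ± 0.14. *Alx1*, a gene of head mesenchyme and of the skull base, was at 194 CPM in the E7.5 library, 8.02 to 14.3 CPM at E8.5 and 18.9 to 72.3 CPM at E9.5, without a call in either genotype. Of 10 tested branchiomeric muscle regulators, genes of the muscles of the jaw and pharynx, *Tbx1* alone was called lower and 0 higher in either genotype, with medians of -0.76 in WT and 0.13 in null cells. In the list of somite and presomitic mesoderm, 0 of 10 tested genes was called in either genotype.

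**Figure D1:**
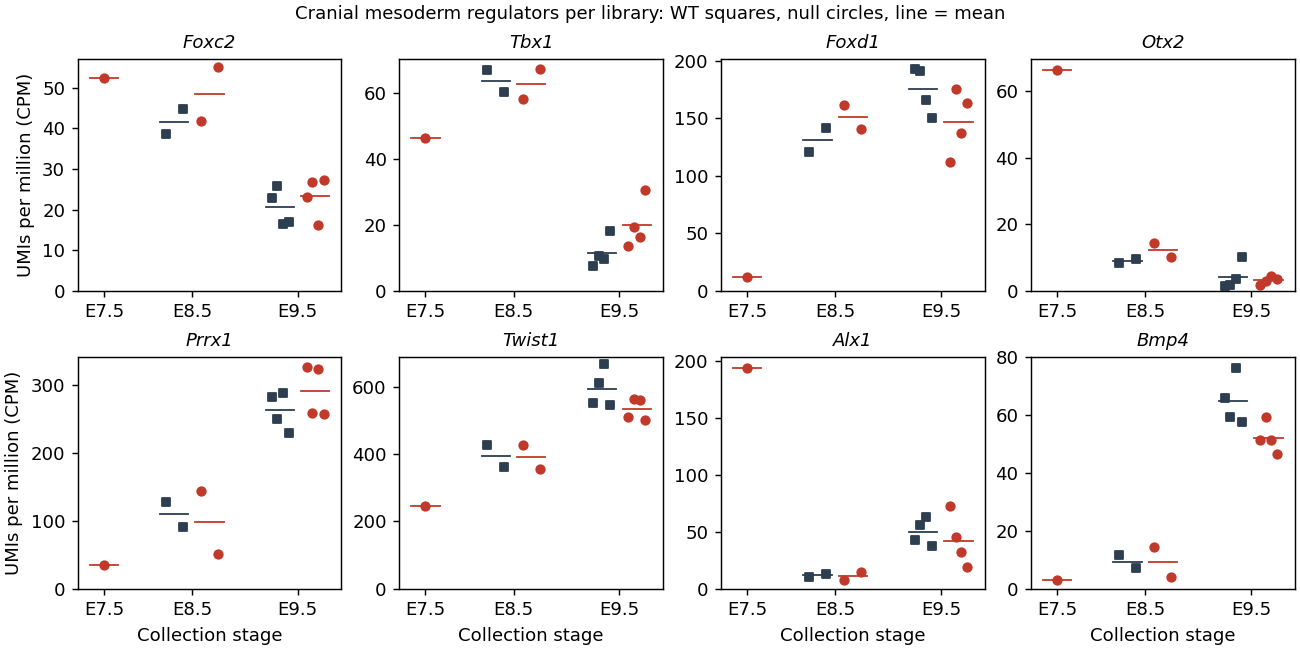
Summed UMIs per 1000000 (CPM, linear axis from 0) of 8 genes in Cranial mesoderm cells of each library by collection stage, with WT libraries as squares, null libraries as circles and the group mean as a line. *Foxc2* and *Tbx1* lie lower in each E9.5 library than in each E8.5 library, *Bmp4* lies higher, and *Otx2* and *Alx1* are highest in the single E7.5 library, at 66.4 and 194 CPM.

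The E7.5 library, null A, rests on 27 cells and has no replicate and no WT partner, so its values are given without a test. Beside *Otx2* and *Alx1* it was the highest of the 13 libraries for *Cyp26a1*, which encodes an enzyme that degrades retinoic acid (127 CPM against 5.49 to 19.8 CPM in the others). *Phlda2*, an imprinted growth gene, stood at 244 CPM against 0 to 14.3 CPM, and *Myl7*, an atrial myosin light chain gene, at 230 CPM against 2.32 to 14.1 CPM. *Mesp1*, the transcription factor of nascent head and heart mesoderm, stood at 29.2 CPM against 0 to 0.973 CPM. *Foxd1*, in turn, was lowest there, at 12.1 CPM against 112 to 193 CPM. The median label score, the share of the 25 atlas cells that bore the label, was 0.56 at E7.5, 0.76 at E8.5 and 0.72 at E9.5.

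To show how the cells varied among themselves, each cell was thinned to 10000 UMIs and scored for at least 1 UMI of a gene. *Foxc2* was found in 32.4, 30.7 and 14.9% of the thinned cells in the order of the stages (70.3, 56.4 and 37.1% before thinning), against 1.38% of 800 Erythroid cells, which do not express it. *Tbx1* was found in 40.5, 40.4 and 10.8% against 0.750% of Erythroid cells. *Prrx1* was found in 24.3, 56.4 and 83.2% against 1.75%. *Twist1*, by contrast, was found in most cells of each stage, with 91.9, 93.6 and 94.2%. The median depth was 29412 UMIs here and 34130 UMIs in Erythroid cells, before thinning.

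Cells at E9.5 held UMIs of *Hox* genes of paralog groups 4 to 10, which are expressed in the trunk and the posterior hindbrain but not in the head anterior to it. At least 1 such UMI was found in 40.0% of the thinned E9.5 cells, between 23.9 and 58.3% per library, against 12.8% at E8.5 and 11.4% in Erythroid cells. Before thinning the shares were 68.0% at E9.5, 26.1% at E8.5 and 27.3% in Erythroid cells. The E8.5 share was thus close to that of Erythroid cells with and without thinning. The Erythroid cells were drawn without regard to stage, and they were not shown to lack these *Hox* genes. All 18 tested genes of these groups had a positive stage change in either genotype, with medians of 2.55 and 2.55 beside 0.03 and 0.04 over all genes. The medians were 2.44 and 2.35 with the 2 and 3 genes without a UMI at E8.5 set to the bound that 3 UMIs over the group allow. Called higher were 2 in WT cells (*Hoxc4* and *Hoxc6*) and 3 in null cells (*Hoxc4*, *Hoxb6* and *Hoxc6*), and 0 was called lower. *Hoxc6* rose from 0.838 and 0.785 CPM in E8.5 WT libraries (2 UMIs in all) to 3.21 to 14.8 CPM in E9.5 WT libraries (63 UMIs), a ratio of 9.72 with a counting interval of 2.58 to 82.0. *Hoxc4* rose from 1 to 62 UMIs, a ratio of 19.1 (3.31 to 768). Each of these calls was lost in at least 1 alternative that left out a library, and the WT call of *Hoxc6* held in 2 of 6.

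At E9.5 *Hox* UMIs went with somite regulators in the same cells. Among these cells, *Meox1* was found in 32.9% (exact interval 26.5 to 39.7%) of the 207 cells with a posterior *Hox* UMI and in 9.32% (6.33 to 13.1%) of the 311 cells without one. *Tcf15*, a regulator of somite epithelium, was found in 23.2 and 6.43%, and *Pax3*, a regulator of the dermomyotome, in 17.4 and 7.72%. *Foxc2* was found in 15.5 and 14.5% and *Alx1* in 15.9 and 26.4%. These shares pool cells of 8 libraries, and within libraries the *Meox1* share was higher in the cells with a *Hox* UMI in 8 of 8, at 18.8 to 42.9% against 0 to 14.3%. The shares of *Tcf15* and *Pax3* were each higher in 7 of 8 libraries, the exceptions being E9.5 null D for *Tcf15* and E9.5 WT D for *Pax3*. At E8.5 the intervals overlapped for each of the genes, with *Meox1* in 35.7% (18.6 to 55.9%) of 28 cells with and 16.8% (11.8 to 22.9%) of 190 cells without a *Hox* UMI, *Tcf15* in 21.4 and 17.4%, and *Pax3* in 7.14 and 3.16%. A thinned cell without such a UMI is not shown to lack these genes, since more cells held one before thinning, and the intervals cover counting error only. At E8.5 *Meox1* was found in 33.0% (23.3 to 43.8%) of the 88 cells with a *Tbx1* UMI and in 10.0% (5.43 to 16.5%) of the 130 without. The order held in each of the 4 libraries, with 24.1 and 3.39% in null A, 12.5 and 0% in null B, 47.6 and 14.3% in WT A and 36.7 and 20% in WT B. At E9.5 the intervals overlapped, with 28.6% (17.3 to 42.2%) and 17.5% (14.2 to 21.3%). Per library, *Meox1* stood at 63.7 and 61.3 CPM in the WT and 15.6 and 16.3 CPM in the null libraries of E8.5, a difference that was not called (log2 -2.02 ± 0.64, adjusted p = 0.807, edgeR).

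**Figure D2:**
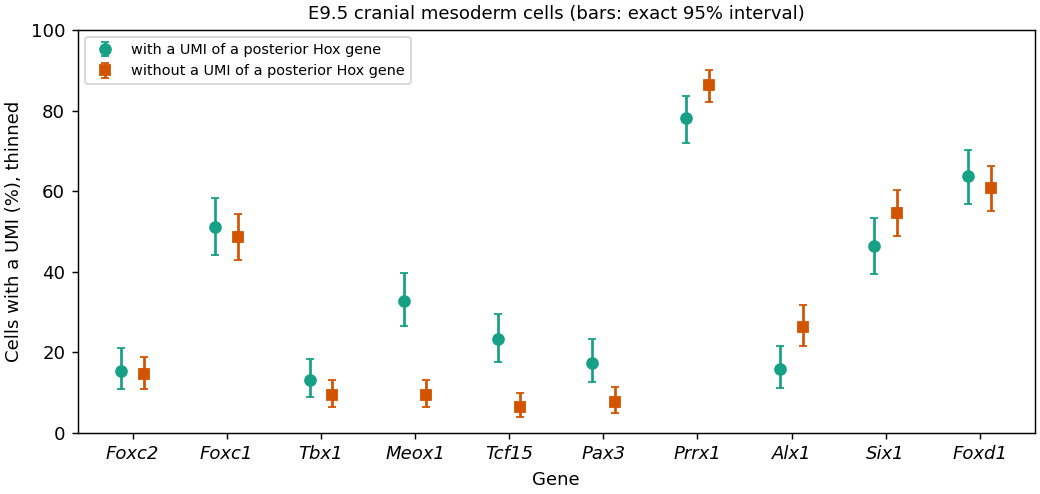
Percent of E9.5 Cranial mesoderm cells with at least 1 UMI of each gene after thinning to 10000 UMIs, in the 207 cells with a UMI of a *Hox* gene of groups 4 to 10 (circles) and the 311 cells without one (squares), with exact 95% binomial intervals as bars. *Meox1*, *Tcf15* and *Pax3* are found more often in cells with a posterior *Hox* UMI (32.9, 23.2 and 17.4%) than in cells without (9.32, 6.43 and 7.72%), while *Foxc2* is found in 15.5 and 14.5%.

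Glycolysis converts glucose to lactate through a chain of cytosolic enzymes. It is induced by low oxygen along with *Bnip3*, a nuclear gene that encodes a mitochondrial protein. Of 24 tested genes of glycolysis and hypoxia, 12 were called lower and 0 higher at E9.5 in WT cells, and 14 lower and 0 higher in null cells. The medians were -0.998 and -1.14 beside 0.03 and 0.04 over all genes. Signs of RNA quality moved with stage too, since the median mitochondrial share of a library's cells ran from 0.63 to 1.08% at E8.5 and from 1.12 to 1.75% at E9.5, and the ribosomal share from 25.7 to 27.3% and from 21.8 to 23.6%. Their part in the stage changes was not tested. *Pgk1*, phosphoglycerate kinase, stood at 1522 and 1661 CPM in WT and 1519 and 1917 CPM in null libraries at E8.5. At E9.5 it stood at 584 to 625 CPM in WT and 647 to 692 CPM in null libraries, far from overlap. It fell by 1.61 ± 0.08 on the log2 scale in WT (adjusted p = 2.1e-15) and by 1.54 ± 0.08 in null cells (adjusted p = 9.7e-15, edgeR).

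The decrease ran along the chain from glucose uptake to lactate. *Slc2a1*, the glucose transporter GLUT1, changed by -1.49 ± 0.19 in WT cells and *Hk2*, hexokinase, by -1.10 ± 0.15. *Aldoa*, *Tpi1* and *Ldha*, the genes of aldolase, triosephosphate isomerase and lactate dehydrogenase A, changed by -1.29, -1.43 and -1.44, and *Slc16a3*, a lactate exporter, by -1.497 ± 0.26. *Bnip3* changed by -1.81 in WT and -1.97 in null cells. *Gapdh* changed by -0.74 ± 0.08 and -0.75 ± 0.08, under the fold required for a call. Not each member moved this way, since *Vegfa*, a hypoxia target, changed by 0.40 ± 0.31 in WT and -0.07 ± 0.26 in null cells and *Hk1* by 1.12 ± 0.41 and -0.04 ± 0.36, without a call. *Ldhb*, the other lactate dehydrogenase, rose by 2.58 in WT cells. Without E8.5 WT B the WT calls of *Hk2*, *Slc16a3* and *Slc2a3* were lost, and *Slc2a3* then changed by -0.48. In null cells *Pgam1*, *Slc2a1* and *Higd1a* were not called without E8.5 null B, nor *Pgam1* without E9.5 null A, nor *Pdk1* and *Slc2a3* without E8.5 null A.

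**Figure D3:**
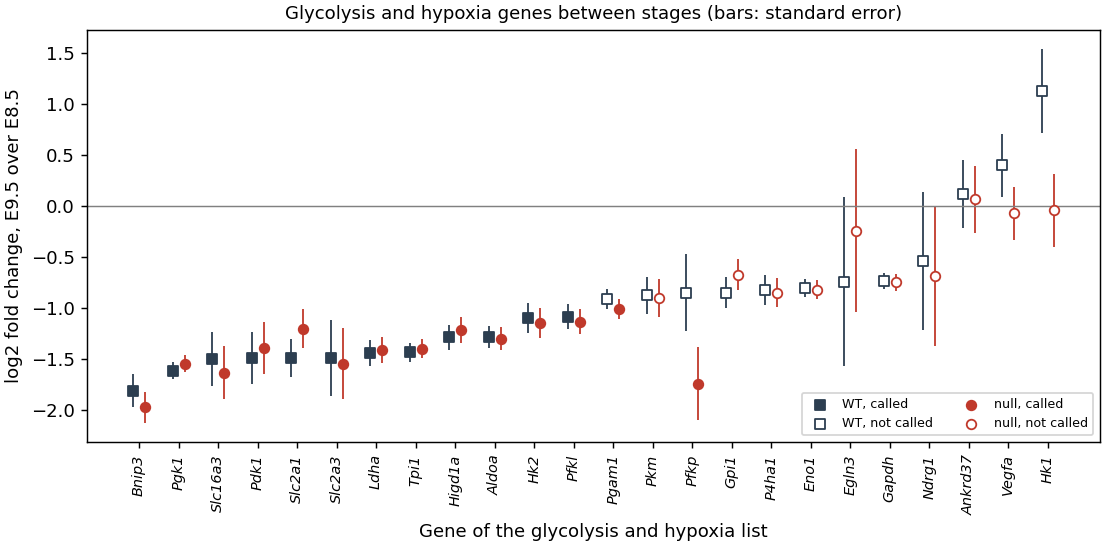
Log2 fold change of E9.5 over E8.5 with its standard error for the 24 tested genes of glycolysis and hypoxia in Cranial mesoderm cells, with WT as squares, null as circles and called genes filled. WT and null points lie close together for most genes, and the called genes, 12 in WT and 14 in null cells, all lie below 0.

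Single genes of growth factor and retinoic acid signaling rose over the same interval. *Bmp4*, a signaling ligand of the BMP family, stood at 11.7 and 7.07 CPM in WT and 14.4 and 4.08 CPM in null libraries at E8.5, and at 57.7 to 76.4 and 46.7 to 59.5 CPM at E9.5. It rose by 2.56 ± 0.27 in WT (adjusted p = 5.3e-08, edgeR) and 1.92 ± 0.25 in null cells (adjusted p = 3.0e-06). Of 18 BMP genes it was the only one called in WT cells, while 2 were called higher in null cells (*Bmp4* and *Msx2*). The null call of *Msx2* held in all 12 alternatives. *Gas1*, a co-receptor of Hedgehog ligands, rose by 1.21 ± 0.20 and 1.64 ± 0.21, the only called gene of 12 Hedgehog genes in either genotype. Of 16 retinoic acid genes, 4 were called higher (*Crabp2*, *Rarb*, *Stra6* and *Dhrs3*) and 1 lower (*Cyp26c1*) in WT cells, and 2 higher (*Crabp2* and *Stra6*) and 0 lower in null cells. *Crabp2*, which carries retinoic acid to its nuclear receptors, rose by 1.10 ± 0.15 and 1.66 ± 0.16 and was called in all 12 alternatives of either genotype. The WT calls of *Rarb* and *Cyp26c1* were lost without E8.5 WT A, and those of *Stra6* and *Dhrs3* without either E8.5 WT library. The null call of *Stra6* was lost without E8.5 null A, where its change was 0.88 (adjusted p = 0.620, edgeR). *Aldh1a2*, which makes retinoic acid, ranged from 8.27 to 85.6 CPM at E9.5 and was not called.

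Of 29 collagen and matrix genes, 4 were called higher (*Col1a1*, *Col1a2*, *Col3a1* and *Col6a1*) and 1 lower in WT cells, and 2 higher and 1 lower in null cells. *Col1a2*, the second chain of type I collagen, stood at 57.0 and 45.5 CPM in WT and 62.0 and 18.4 CPM in null libraries at E8.5 and at 147 to 228 and 166 to 213 CPM at E9.5. Its change was 1.71 ± 0.29 and 1.77 ± 0.29. *Fn1*, fibronectin, fell by 1.16 ± 0.14 in WT cells, and *Vim*, the mesenchymal intermediate filament, rose by 1.44 ± 0.13 and 1.04 ± 0.13, although the null call was lost without E8.5 null B or E9.5 null C. Each of the 4 WT collagen calls was lost without E8.5 WT B, where the *Col1a2* change was 1.55, and those of *Col3a1* and *Col6a1* held in 3 of 6 fits that left out a library.

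Of 20 IGF and imprinted growth genes, 4 were called higher (*Igf1*, *Dlk1*, *Meg3* and *Plagl1*) and 0 lower in WT cells, and 2 (*Dlk1* and *Meg3*) and 0 in null cells. *Meg3*, an imprinted non-coding RNA of the *Dlk1* locus, rose by 2.01 ± 0.22 in WT cells (adjusted p = 0.00019, edgeR) and 1.08 ± 0.21 in null cells (adjusted p = 0.010), where the call was lost without E8.5 null A. In WT cells the call of *Dlk1* was lost without either E8.5 WT library, and those of *Igf1* and *Plagl1* each held in 1 of 6 fits that left out a library and in 5 of 12 alternatives. The null call of *Dlk1*, a Notch-like transmembrane protein gene, held in 1 of 6 fits that left out a library, and E8.5 null B held none of its UMIs (0 CPM).

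Lists of other tissues also held called genes. Of 9 tested genes of limb and lateral plate, 2 were called higher (*Bmp4* and *Lix1*) and 1 lower (*Fgf10*) in WT cells, and the same 2 higher and 0 lower in null cells, with medians of 1.02 and 1.05. *Lix1* stood at 30.2 and 29.8 CPM in WT and 68.4 and 18.4 CPM in null libraries at E8.5, and at 117 to 130 and 108 to 154 CPM at E9.5. It rose by 1.83 ± 0.28 in WT cells, a call that held in all 12 alternatives, and by 1.05 ± 0.25 in null cells, where the change was 2.61 without E8.5 null A and the call was lost without E8.5 null B (0.75) or E9.5 null A (0.96) and with libraries of more than 50 cells alone (0.79). The limb list summed to 38.8 to 95.4 CPM at E8.5 and 190 to 301 CPM at E9.5. Of 8 neural genes, *Fabp7*, which encodes a fatty acid binding protein of radial glia, was the only called gene in either genotype, and the medians were 0.82 and 1.14. It rose by 2.04 ± 0.56 in WT and 3.83 ± 0.71 in null cells, and the calls were lost without E8.5 WT A and without E8.5 null A, the WT call also under DESeq2 and with libraries of more than 50 cells alone. The neural list summed to 26.5 to 61.3 CPM at E8.5 and 54.6 to 99.9 CPM at E9.5, and the part of other cell types in these changes was not tested. Other genes lost the WT call without E8.5 WT B. *Etv2*, a regulator of endothelial and blood progenitors, stood at 86.4 CPM in that library and 2.51 CPM in WT A, and without WT B its WT change went from -4.21 to -0.08. Its call was lost without any 1 of the E9.5 WT libraries too and held in 1 of 6 such fits. *Myl7*, *Actc1* and *Krt18* also lost the call without E8.5 WT B, and that of *Actc1* held in 2 of 6 fits. *Kdr*, a receptor of vascular endothelial growth factor, changed by -3.15 ± 0.60 and was likewise not called without that library (adjusted p = 0.073, edgeR), though its change was -1.94 or further from 0 in all 12 alternatives. Of these 5 genes 0 was called in null cells.

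In the other signaling lists at most 1 gene per list was called between the stages in either genotype. The share over all genes was 4.03% in WT and 2.67% in null cells. *Dkk2*, a secreted modulator of Wnt signaling, was called higher in WT cells and *Wnt5a*, a Wnt ligand, in null cells, of 20 Wnt genes. Of 17 FGF genes, *Fgf10*, a ligand of the second heart field and limb, was called lower in WT cells and 0 in null cells, and of 11 Notch genes, *Heyl*, a target of the pathway, was called higher in WT cells and 0 in null cells. With a library left out, the calls of *Dkk2*, *Fgf10* and *Heyl* held in 4, 2 and 3 of 6 fits, being lost without either E8.5 WT library, that of *Fgf10* also without E9.5 WT A or B and that of *Heyl* without E9.5 WT C. The 3 calls were also lost under DESeq2 and with libraries of more than 50 cells alone, and that of *Wnt5a* held in 1 of 6 alternatives that left out a library. Of 8 *Hox* genes of groups 1 to 3, 2 were called higher in WT cells (*Hoxb3* and *Hoxd1*) and 1 in null cells (*Hoxb3*). The call of *Hoxd1* held in 3 of 6 fits that left out a library, and that of *Hoxb3* was lost without E8.5 WT B in WT and without E8.5 null A in null cells (adjusted p = 0.558, edgeR). Of 42 S phase genes and 52 G2/M genes, 0 was called in either genotype.

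Of 10 tested neural crest genes 0 was called in either genotype, but the stage change was positive for 9 of 10 in each, with medians of 2.08 in WT and 2.12 in null cells beside 0.03 and 0.04 over all genes. With the 2 and 3 genes without a UMI at E8.5 set to their bounds the medians were 1.53 and 1.82. *Tfap2b*, a regulator of neural crest, went from 2 UMIs in E8.5 WT to 205 in E9.5 WT libraries, a ratio of 31.6 with a counting interval of 8.65 to 263, and was not called. The exception was *Sox9*, a regulator of neural crest and cartilage, which changed by -0.66 ± 0.13 in WT (adjusted p = 0.00096, edgeR) and -0.37 ± 0.14 in null cells, under the fold required for a call. The summed list stood at 177 to 204 CPM in E8.5 WT and 208 to 239 CPM in E9.5 WT libraries. The part of neural crest cells in the stage changes, such as that of *Prrx1*, which such cells also express, was not tested.

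Of the 3174 genes of at least 50 CPM at either stage in WT cells, 1555 (49.0%) had WT libraries that did not overlap between the stages, so that a lack of overlap alone was common. Among these, 62 were called higher and 26 lower, and those with the largest changes include regulators outside the lists. *Rspo3*, a secreted enhancer of Wnt signaling, had the largest rise, from 2.51 and 3.93 CPM to between 44.5 and 102 CPM (log2 change 4.45), and lost the call without either E8.5 WT library. *Limch1*, an actomyosin regulator, rose by 3.64, *Epha7*, an ephrin receptor gene, by 2.33, and *Alcam*, a cell adhesion gene, by 2.14. *Zic1*, a zinc finger factor of neural and somite tissue, rose by 2.15 and lost the call without E8.5 WT A. *Fst*, follistatin, an inhibitor of activins and BMPs, had the largest fall, from 365 and 256 CPM to 42.3 to 70.5 CPM (log2 change -2.68). *Lin28a*, an RNA-binding protein gene of early embryonic cells, changed by -1.45, *Nr6a1*, an orphan nuclear receptor gene of the early trunk, by -1.73, and *Prtg*, protogenin, by -1.55. The null libraries lay on the same side of both stages for *Fst*, at 237 and 296 CPM and then 28.3 to 102 CPM.

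*Stat3* itself (chr11:100885098-100939540, GRCm38) was low in Cranial mesoderm. At E9.5 it stood at 2.57, 2.81, 2.60 and 1.77 CPM in null A to D and at 9.43, 10.7, 6.33 and 7.74 CPM in WT A to D. At E8.5 null cells held 1 UMI of it in all (0.422 and 0 CPM) and WT cells 8 UMIs (3.35 and 3.14 CPM). Null libraries lay below WT libraries at both stages, and the E9.5 log2 difference was -1.72 ± 0.37 (adjusted p = 0.022, edgeR). This call held in 6 of 15 alternatives, with an adjusted p of up to 0.339, and in 1 of 8 that left out a library. Tags from the 3′ end can lie downstream of the deleted exons, and their position in the gene was not examined. The level thus does not by itself show the deletion.

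Genes of the STAT3 pathway were otherwise not called by genotype, beside 0.137% of all genes called at E9.5 and 0.0294% at E8.5. At such shares a list of this size can be without a call, so the count does not show that the pathway was unchanged. Of 19 tested genes, *Stat3* was called lower at E9.5 and 0 at E8.5, with a median of -0.10 at E9.5 beside 0.00 over all genes. *Socs3*, a feedback inhibitor and target of STAT3, differed by -0.12 ± 0.30 at E9.5 and stood at 4.73 to 8.76 CPM in null and 5.39 to 10.2 CPM in WT libraries. *Il6st*, the gp130 receptor chain of the IL-6 family, differed by -0.36 ± 0.15 without a call (adjusted p = 0.650). Between the stages, *Cntfr*, a receptor of ciliary neurotrophic factor, rose in WT (1.21 ± 0.32) and null cells (1.81 ± 0.33), and *Socs2*, another inhibitor of cytokine signaling, fell by 1.11 ± 0.24 and 1.50 ± 0.23. In WT cells the call of *Cntfr* was lost without either E8.5 library and that of *Socs2* without WT B, and in null cells both were lost without E8.5 null A.

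The genotypes differed in few genes. At E9.5, 14 of 10206 genes (0.137%) were called, 6 higher (0.0588%) and 8 lower (0.0784%) in null cells, and 635 had an unadjusted p under 0.05. Null and WT libraries did not overlap in 12 of the 14, the exceptions being *Dusp23* and *Ngfr*, beside 387 of all 10206 genes (3.79%), and the 14 were chosen for their difference. In the head mesoderm, branchiomeric, somite, *Hox*, glycolysis, BMP, retinoic acid and collagen lists 0 genes were called by genotype at either stage. *Foxc2* differed by 0.20 ± 0.18 at E9.5 and 0.09 ± 0.25 at E8.5, and *Tbx1* by 0.67 ± 0.27 (adjusted p = 0.690) and -0.10 ± 0.30. An adjusted p above the threshold does not show that these levels are equal.

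*Cwc22*, a splicing factor gene (chr2:77881159-77946375), stood at 175, 132, 144 and 145 CPM in null A to D and 40.4, 37.5, 38.9 and 22.1 CPM in WT A to D at E9.5. Each null library lay above each WT library, and the log2 difference was 2.15 ± 0.15 (adjusted p = 8.0e-09, edgeR). At E8.5 it stood at 84.0 and 129 CPM in null and 50.3 and 53.4 CPM in WT libraries, apart but not called (0.88 ± 0.24, adjusted p = 0.489). *Fam196b*, also named *Insyn2b* (chr11:34314822-34422640), was found at 4.54 to 8.07 CPM in E9.5 null libraries and at 0, 0.535, 0 and 0 CPM in WT libraries. These are 64 and 1 UMIs, a ratio of 51.2 with a counting interval of 8.87 to 2054. At E8.5 its 23 null UMIs stood against 0 in WT cells, at least 6.61-fold higher over the group. *Phtf2*, *Fggy* and *Dph7* were higher by 1.11 ± 0.17, 1.48 ± 0.32 and 1.35 ± 0.31.

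Lower in null cells were a histone gene, 2 aldo-keto reductase genes and a pseudouridine synthase gene. *Hist1h4i*, a histone H4 gene (chr13:22040636-22041362), stood at 9.54, 13.7, 11.7 and 13.0 CPM in null and 49.2, 38.0, 55.5 and 59.2 CPM in WT libraries at E9.5, a log2 difference of -2.08 ± 0.17 (adjusted p = 1.3e-09). *Pusl1*, a pseudouridine synthase homolog (chr4:155887879-155891781), stood at 4.77 to 8.27 CPM in null and 18.7 to 27.9 CPM in WT libraries, a difference of -1.89 ± 0.23 (adjusted p = 3.4e-06). *Akr1b8* and *Akr1e1* differed by -3.16 ± 0.45 and -1.70 ± 0.28. Histone genes of this cluster have near-identical copies, so the counts of 1 gene are uncertain where the tags could not be told apart. *Ngfr*, a neurotrophin receptor gene of mesenchyme and neural crest, differed by -1.12 ± 0.23, with 17.6 CPM in null A above 16.8 CPM in WT A.

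*Cwc22*, *Fam196b*, *Zdbf2*, *Hist1h4i*, *Pusl1* and *Akr1b8*, 6 of the 14, were called in each of 15 alternatives, and *Akr1e1* and *Phtf2* in 14. *H19*, *Stat3*, *Dph7*, *Dusp23*, *Fggy* and *Ngfr* were called in 4 to 9, and with a single library left out they held in 1, 1, 1, 2, 3 and 3 of 8. Without E9.5 null C the count of calls was 8. At E8.5, 3 genes (0.0294%) were called, all lower in null cells, and 518 had an unadjusted p under 0.05. *Pusl1* stood at 5.06 and 12.3 CPM in null and 37.7 and 32.2 CPM in WT libraries (-2.45 ± 0.37, adjusted p = 0.0019). *Hist1h4i* differed by -1.43 ± 0.26 and its neighbor *Hist1h2bj* by -1.71 ± 0.31 (adjusted p = 0.014 and 0.014). Each was lost without E8.5 null A or without E8.5 WT A. A test of the change in genotype effect between the stages called 0 of 10206 genes with edgeR and 0 with DESeq2, with 466 at an unadjusted p under 0.05.

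Of 20 IGF and imprinted growth genes, *H19* alone was called by genotype at E9.5, and the list median was 0.05 beside 0.00 over all genes. Imprinted genes are expressed from 1 parental allele, and the study left them out of the cell mapping and of its differential expression tests. *H19*, a maternally expressed RNA (chr7:142575529-142578143), stood at 2.94, 24.5, 8.44 and 68.0 CPM in null A to D and 402, 482, 396 and 444 CPM in WT A to D at E9.5. The groups were far apart and the null libraries differed widely among themselves, and the log2 difference was -4.25 ± 0.64 (adjusted p = 0.045, edgeR), a call that held in 4 of 15 alternatives, with an adjusted p of up to 0.406. *Igf2*, its paternally expressed neighbor and a fetal growth factor, stood at 390, 392.5, 367 and 507 CPM in null and 183, 237, 186 and 146 CPM in WT libraries. Its groups did not overlap either, though the difference of 1.16 ± 0.21 was not called (adjusted p = 0.111). *Zdbf2*, a paternally expressed gene (chr1:63273265-63314576), was higher in null cells by 1.15 ± 0.11 (adjusted p = 8.0e-09), at 109 to 133 CPM against 46.8 to 66.7 CPM.

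*Grb10*, an inhibitor of insulin and IGF receptor signaling with maternal expression in most tissues, stood at 5.87, 24.9, 10.7 and 29.0 CPM in null and 419, 509, 413 and 388 CPM in WT libraries at E9.5. At E8.5 null A held 1.69 CPM and null B 243 CPM, against 270 and 260 CPM in WT libraries. E8.5 null B thus lay beside the WT libraries for *Grb10* but beside the null libraries for *H19* (24.5 CPM) and *Pusl1* (12.3 CPM). The E9.5 difference of -4.70 ± 0.83 was not called (adjusted p = 0.113). *Meg3*, *Dlk1* and *Cdkn1c*, other imprinted genes, differed by -0.21 ± 0.14, -0.21 ± 0.31 and 0.31 ± 0.30 at E9.5. *Zdbf2* is not a member of the list.

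**Figure D4:**
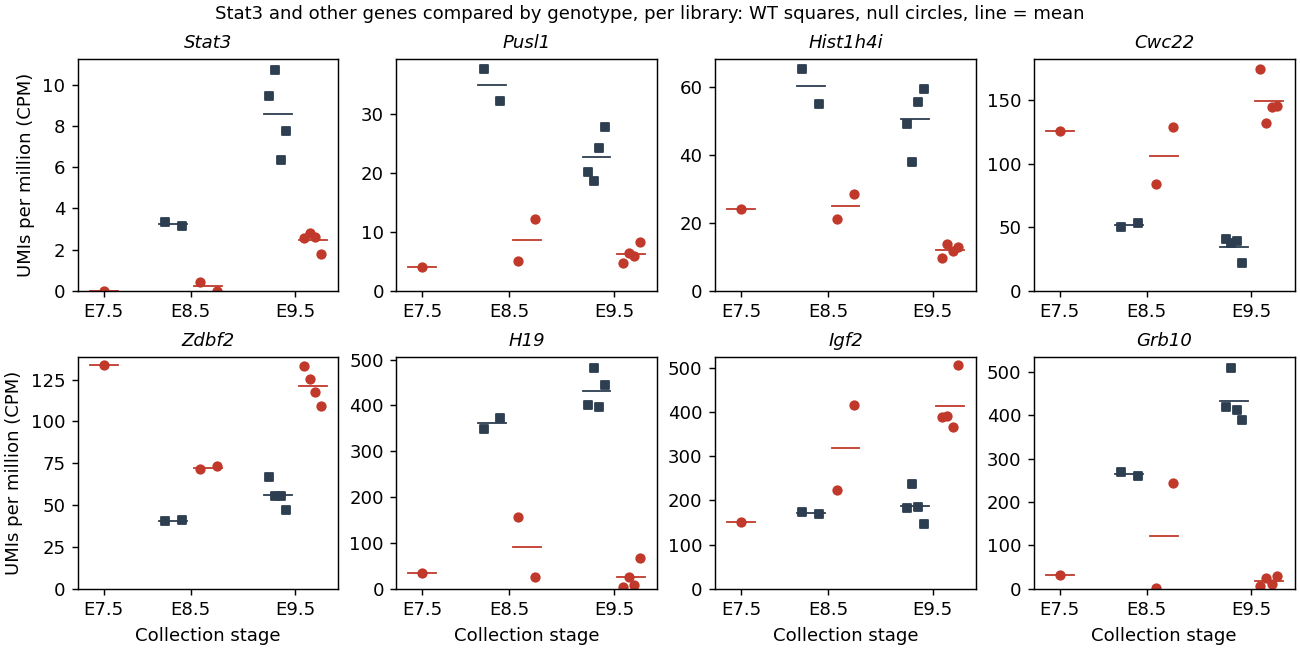
Summed UMIs per 1000000 (CPM, linear axis from 0) of 8 genes in Cranial mesoderm cells of each library by collection stage, with WT libraries as squares, null libraries as circles and the group mean as a line. At E9.5 the null and WT libraries do not overlap for any of the 8 genes, although *Igf2* and *Grb10* were not called, and for *Grb10* the E8.5 null libraries lie at 1.69 and 243 CPM. The called genes shown were taken from those without overlap at E9.5, so their lack of overlap follows from the choice. Over all 10206 genes, 387 (3.79%) did not overlap.

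The same contrast in the other cells of the same libraries shows whether these differences belong to Cranial mesoderm. Their counts were summed over all cells of other types. The effects given for each set of cells come from separate fits, and the difference between them was tested in 1 joint model. The mix of cell types in the other cells was not matched between the genotypes, and its part was not tested. For *Cwc22* the log2 difference was 2.15 ± 0.15 in Cranial mesoderm and 2.13 ± 0.08 in the other cells, for *Hist1h4i* -2.08 ± 0.17 and -1.91 ± 0.17, for *Pusl1* -1.89 ± 0.23 and -1.78 ± 0.25, and for *H19* -4.25 ± 0.64 and -3.73 ± 0.86. *Stat3* differed by -1.72 ± 0.37 and -1.54 ± 0.14. The test of the difference between the effects called 0 of 10206 genes with edgeR and 0 with limma-voom, with 467 at an unadjusted p under 0.05, so no genotype difference was shown to be particular to Cranial mesoderm. For *Ngfr* the other cells differed by -0.19 ± 0.15, and the effect in Cranial mesoderm was lower by 0.99 ± 0.26 (adjusted p = 0.417). Without E9.5 null C this test called 7 genes.

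**Figure D5:**
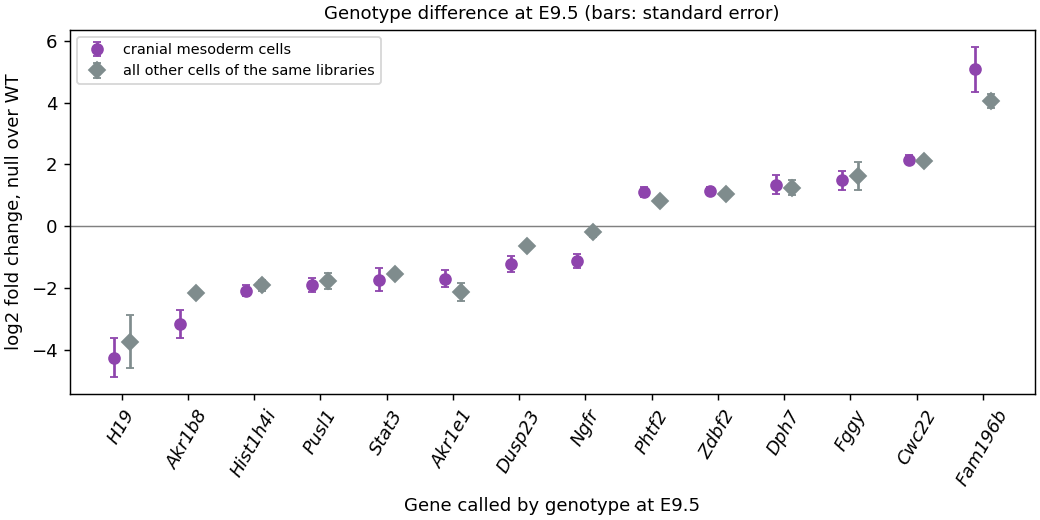
Log2 fold change of null over WT at E9.5 with its standard error for the 14 genes called in Cranial mesoderm (circles) and for the same genes in all other cells of the same libraries (diamonds). The signs are the same in both for all 14 genes, and *Ngfr* is nearest to 0 in the other cells, at -0.19.

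The promoters of the genes called by genotype were searched for the STAT3 consensus TTCNNNGAA, a palindrome of 9 letters that reads the same on both strands. Of the 13 genes called at E9.5 or E8.5 whose libraries did not overlap, 9 could be matched to a RefSeq promoter (GRCm38.p6). Of these 9, 1 gene, *Zdbf2*, held the motif within 250 bases before a start. The unmatched genes were not searched. The share over all genes with a promoter was 8.13% of 27025. The window before 1 *Zdbf2* start, on the plus strand at chr1:63200108-63200357, is shown because it holds the match, which begins 242 bases before the start and is in capitals.

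*Zdbf2*: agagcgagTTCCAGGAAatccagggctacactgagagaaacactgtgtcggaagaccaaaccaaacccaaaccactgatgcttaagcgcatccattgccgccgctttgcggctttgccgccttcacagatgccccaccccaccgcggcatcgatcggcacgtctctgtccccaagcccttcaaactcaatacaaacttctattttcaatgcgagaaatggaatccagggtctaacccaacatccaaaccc

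A match of letters is a description and not a binding site. The other *Zdbf2* start, at which the gene model named above begins, held none in its window.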

How the data were processed

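Chimeric embryos were sorted by tdTomato and profiled with a 3′ droplet chemistry in 16 libraries. The authors mapped reads to mm10 with Cell Ranger, counted UMIs per gene with the tdTomato sequence added, filtered cells, called doublets and transferred cell types, and deposited raw UMI counts per gene and cell without normalization. The deposited table of cells also gave mitochondrial and ribosomal percent values per cell and a label score, the fraction of the 25 nearest atlas cells with the label. Member cells held 10147 to 93431 UMIs. The stage and gate of each library are known and its embryo pool is not, so libraries of a group were treated as replicates without pairing, and letters follow the order of library names. No column of per-sample values was unmatched (0).

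UMI counts were summed per library with more than 15 Cranial mesoderm cells. Tests used the quasi-likelihood fit of edgeR 4.0.16 (filterByExpr, TMM, R 4.3.3) on 5 groups of 13 libraries (E7.5 null, E8.5 null, E8.5 WT, E9.5 null and E9.5 WT), adjusted over all genes tested. Of 29453 genes, 8177 were left out by name (predicted, mitochondrial, ribosomal protein, hemoglobin and Y-linked genes, the transgene, *Tsix* and *Xist*). The study's block for the embryo pool could not be fitted. The fit was tested on simulated data. DESeq2 1.42.0 and limma 3.58.1 served as alternatives. Exact permutation tests were two-sided and permuted genotype within stage. Cells were thinned to 10000 UMIs for shares with a UMI. Binomial intervals are exact (Clopper-Pearson, 95%), and these and limits of a count of 0 (3 counts) cover counting error only. Coordinates are of GRCm38.

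The cells, the 27 gene lists and the tests were chosen with earlier results of these data known. Named were the genes of the lists, up to 12 called genes per direction whose libraries did not overlap (for the WT stage change with at least 50 CPM at either stage), and the genes with the highest ratio to any other cell type. *Dusp23* and *Ngfr*, called but overlapping, were named after their values were seen, and so were the examples within the lists.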

Additional observations from a re-analysis of the deposited data

Results flagged for a closer look

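In 7 of 98 groups of 4 libraries tested, 1 library lay far from the other 3, with a gap to its nearest neighbor above Dixon's critical share of the whole range, which chance gives in about 1 of 20 groups. Hemoglobin RNA in E9.5 null C reached 628.7 CPM, while the other null libraries of that stage lay at 11.6 to 66.8 CPM. *Cwc22* in E9.5 WT D (22.07 CPM), *Rspo3* in E9.5 WT D (44.52 CPM), *Slc2a1* in E9.5 WT C (31.63 CPM) and *Prrx2* in E9.5 WT A (220.3 CPM) lay below the other WT libraries. *Akr1b8* was at 0 CPM in E9.5 null D and at 1.10 to 1.30 CPM in the others. *Fam196b* was at 0.5351 CPM in E9.5 WT B, which is 1 UMI, and at 0 in the other WT libraries.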

How the results depend on the processing

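No paired analysis was possible because the names of the libraries match none of the sample titles, so the replicate number of a library is not known. Without the filter on low counts the calls were 37 by genotype at E9.5, 17 by genotype at E8.5, 16 for the difference of the genotype effect between the stages and 22 for Cranial mesoderm against the other cells. With only libraries of more than 50 cells, which leaves 1 library per genotype at E8.5 (assumed to vary like the other groups), they were 7 by genotype at E8.5, 1 for the difference between the stages, 196 for the stage change in WT and 169 in null cells. DESeq2 called 1 gene by genotype at E8.5 and 243 genes in the WT stage change, and the E8.5 libraries fitted alone gave 13 calls by genotype. With 1 library left out, calls ranged from 8 to 13 by genotype at E9.5, 0 to 6 at E8.5, 0 to 1 for the difference between the stages, 190 (without E8.5 WT B) to 447 in the WT stage change, 145 (without E8.5 null B) to 279 in the null stage change and 0 to 7 against the other cells. The log2 difference in abundance ranged from 0.53 to 1.63 at E7.5, from -0.135 (without E8.5 null A, the opposite sign) to 0.429 at E8.5 and from 0.137 to 0.575 at E9.5, with no value without E7.5 null A, which left under 20 cells. The atlas stage difference ranged from -0.152 days without E8.5 null A (exact permutation p = 0.0286) to -0.053 days without E8.5 null B. The cause of these changes was not tested. Of the log2 changes of single genes and the shares of cells with a UMI, 1290 stayed the same, 251 lost the call and 0 turned their direction. The other 19 were all shares of cells, where the share before thinning lay outside the counting interval of the thinned share. Most of the shares checked in this way did so, and these shares thus depend on thinning. Depth limits genes under a few CPM, such as *Stat3* and single *Hox* genes, and 2 libraries per genotype limit E8.5.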

Other observations

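*Xist*, the RNA of the inactive X chromosome, was summed over Cranial mesoderm cells of each library and left out of the tests. It stood at 0 to 26.1 CPM in the 4 E9.5 null libraries and at 0.387 to 639 CPM in the 4 E9.5 WT libraries. It reached 639 CPM in WT B and 492 CPM in WT C. At E8.5 it was at 0 CPM in both null libraries, 0 CPM in WT A and 84.8 CPM in WT B.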
